A study of Homo sapiens with 12 samples.

Results

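The 8 genes SLC19A1, FPGS, GGH, TYMS, SHMT1, SHMT2, MTHFD1 and MTHFD2 encode steps of folate and methotrexate handling, and were taken by symbol from a raw count table of 59611 symbols. All 8 were among the 15218 genes tested. Their mRNA was measured by stranded, poly-A-selected RNA sequencing in 697 and KOPN-8 cells, both human B-lineage acute lymphoblastic leukaemia lines grown in culture. The 4 groups were edited 697 (clone BM_B, genotype SETD2 heterozygous knockout), control 697 (cells with an sgRNA empty vector, genotype SETD2 WT), edited KOPN-8 (clone BA, SETD2 heterozygous knockout) and control KOPN-8 (sgRNA empty vector, SETD2 WT), with 3 libraries each. The labels name no drug treatment, and all values are read here as those of untreated cells. Each edited group is 1 clone, and from the labels it is not known how many clones a control holds or how its cultures were separated. The edit therefore cannot be told apart from other differences between a clone and its control, and p-values measure only the spread between libraries. The labels number the libraries of a group as biological replicates, but their spread may still be technical. SETD2 is the main enzyme for trimethylation of histone H3 at lysine K36.

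Folates are cofactors that carry single carbon units for the synthesis of thymidylate, purines and methionine. Methotrexate is a folate analogue and a mainstay of treatment of acute lymphoblastic leukaemia. Folates and methotrexate enter blood cells mainly through the reduced folate carrier, are held in the cell as polyglutamates, and leave through ATP-driven exporters. One-carbon units come largely from serine, in parallel cytosolic and mitochondrial branches.

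Totals ran from 10378769 to 14350925 counts in edited 697, 13432744 to 17163305 in control 697, 13239627 to 18278662 in edited KOPN-8 and 13208436 to 17959678 in control KOPN-8. Values are given as CPM, counts-per-million on library sizes scaled with TMM. All 10 B-lineage markers examined exceeded 1 CPM in the group means, and their summed level was 2890 to 3770 CPM over the libraries. Of the T-cell markers, TRAC reached 54.2 CPM in edited and 87.7 CPM in control KOPN-8, whereas CD3D had no counts in any library. Summed myeloid, erythroid and stromal or epithelial markers reached at most 3.44, 0.0654 and 3.61 CPM in a library. SETD2 mRNA, the check of the edit, was higher in edited 697 than in control 697 (log2 fold change 0.44, SE 0.0692, adjusted p = 0.000103, edgeR quasi-likelihood test) and was not called in KOPN-8 (-0.10, SE 0.0689, adjusted p = 0.309). SETD2 mRNA was thus called lower in neither clone labelled heterozygous knockout, and the direction of every edited-to-control difference rests on the labels.

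For 2 members, the promoter sequences are shown because MTHFD2 was called lower in edited KOPN-8, and because SHMT1 differed most upwards between the lines among these genes. They are the 250 bases before the gene start, from RefSeq GRCh38.p14, in which 6 of the 8 members had an entry. GGH and SHMT2 had none and were not searched. Capitals mark CCAAT or, on the other strand, ATTGG.
MTHFD2, chr2:74198365-74198614, plus strand: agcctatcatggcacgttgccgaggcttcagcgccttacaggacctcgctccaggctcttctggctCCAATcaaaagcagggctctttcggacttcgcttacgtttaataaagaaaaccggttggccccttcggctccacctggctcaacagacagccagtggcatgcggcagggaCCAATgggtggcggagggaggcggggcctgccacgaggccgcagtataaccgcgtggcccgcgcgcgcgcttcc
SHMT1, chr17:18363551-18363800, minus strand: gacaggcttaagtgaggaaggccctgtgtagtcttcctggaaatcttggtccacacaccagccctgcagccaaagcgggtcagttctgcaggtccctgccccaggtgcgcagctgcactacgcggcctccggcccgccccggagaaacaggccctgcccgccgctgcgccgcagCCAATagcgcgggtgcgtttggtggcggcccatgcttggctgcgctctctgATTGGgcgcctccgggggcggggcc
The MTHFD2 stretch held CCAAT at 184 to 180 and at 74 to 70 bases before the start, with a GC content of 62.4%. The SHMT1 stretch held CCAAT at 76 to 72 bases and ATTGG at 25 to 21 bases before the start, with a GC content of 68.4%. CCAAT or ATTGG occurred in 32% of 35116 promoters of the same length, whose median GC content was 58%. The composite element bound by ATF4 (TGATGNAAN, searched on both strands), present in 3.13% of promoters, had no match in the 6 members. E2F sites in the forms TTTGGCGC (0.55% of promoters) and TTTCGCGC (0.439%) had no match either. The E-box CACGTG, present in 6.34% of promoters, matched MTHFD1, at 15 to 10 bases before its start, and no other of the 6 members. A match is a description of the letters only.

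The question put by the design was how each edited clone differed from its control. In 697, the edgeR quasi-likelihood test called 0 of the 8 genes at an adjusted p (Benjamini-Hochberg) under 0.05, where it called 9.45% of all genes tested. DESeq2 and limma also called 0, and 3 members, SLC19A1, GGH and TYMS, had an unadjusted p under 0.05, as did 22.2% of all genes tested. The median log2 fold change of the members was 0.0243, against 0 for all genes. Same-numbered 697 libraries deviated together, and with a replicate block the count of all genes called in 697 was 2319 in place of 1438, with 0 members called in both fits. In edited KOPN-8, 3 members, GGH, MTHFD2 and SHMT2, were lower and none was higher, where 28.7% of all genes were called. The median change was -0.0438, against 0 for all genes. With the replicate block, 5348 of all genes were called in KOPN-8 in place of 4370, with 3 members called in both fits. Library ranges of edited and control 697 did not overlap for 3 of the 8 members, and for 24.1% of all genes tested. In KOPN-8 they did not overlap for 3 of the 8 members, and for 45.1% of all genes tested. The KOPN-8 change minus the 697 change, a test of the difference itself, called GGH alone, where 19.5% of all genes were called.

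**Figure D1:**
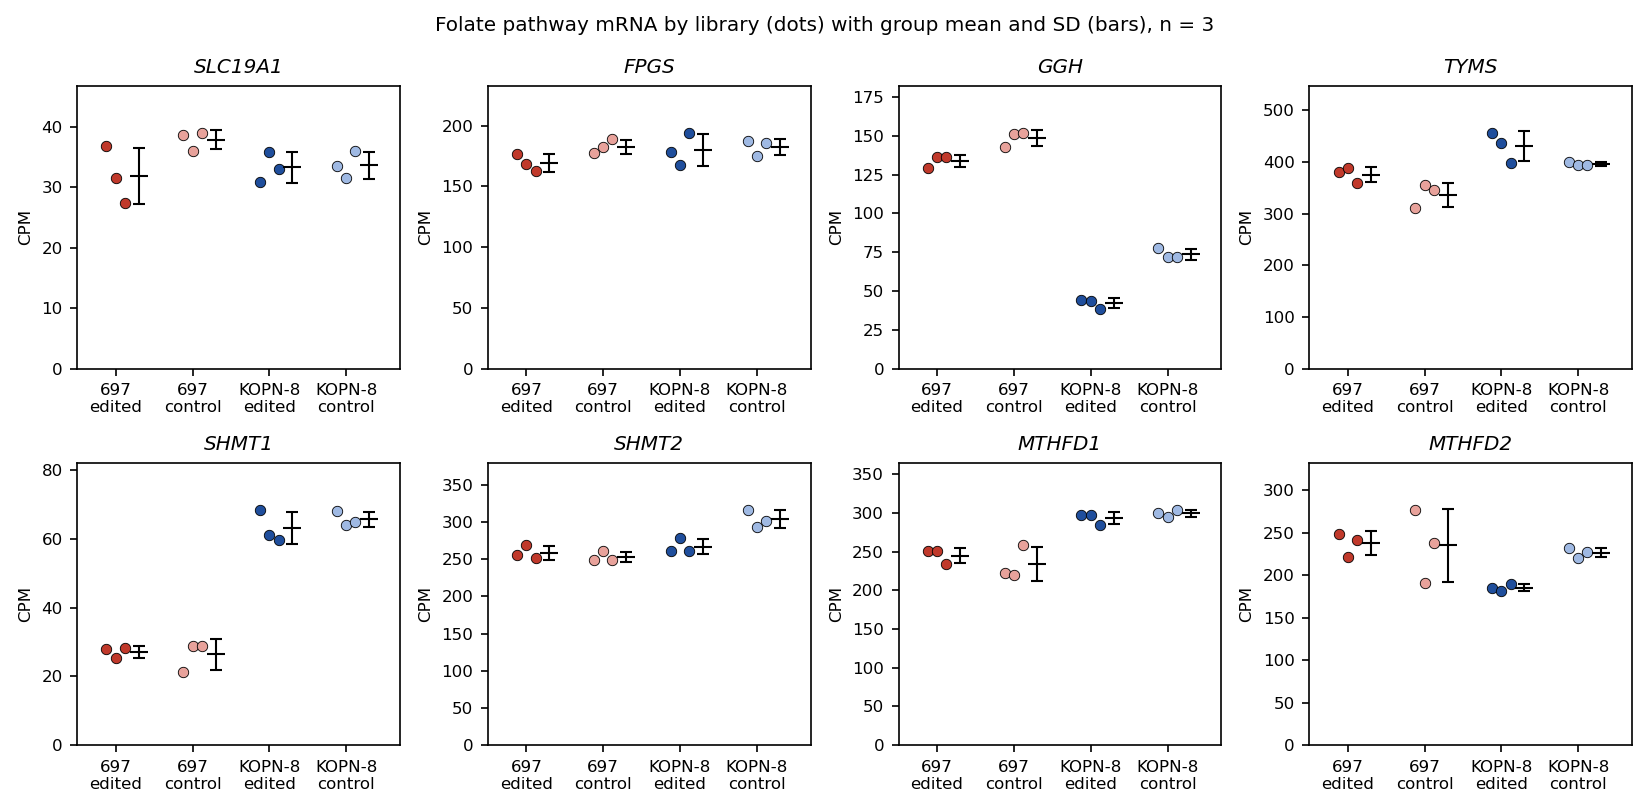
CPM of each folate gene (y axis, from 0) in each library (dots) of the 4 groups (x axis), with the group mean and SD of 3 libraries as bars. GGH stands at 38.4 to 44.2 CPM in edited KOPN-8, below 71.63 to 77.61 CPM in control KOPN-8, and at or above 129.5 CPM in 697.

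**Figure D2:**
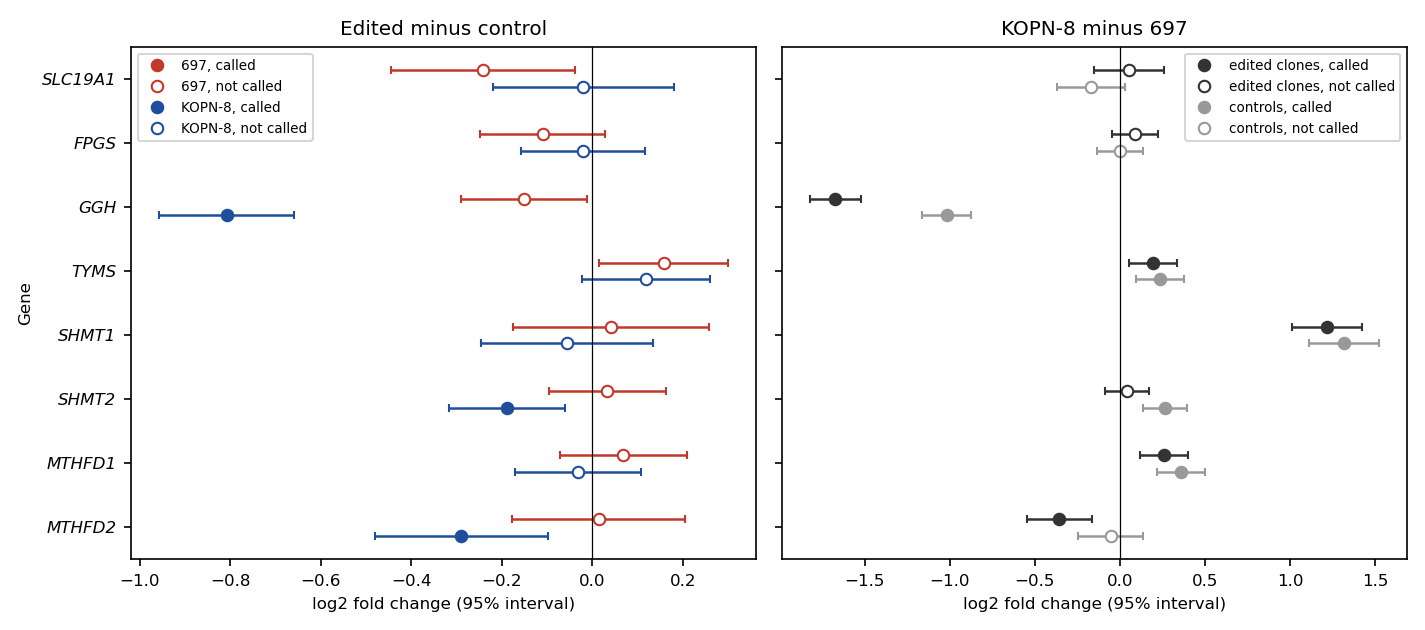
Log2 fold change with its 95% interval for each gene, edited minus control in 697 and KOPN-8 (left) and KOPN-8 minus 697 in edited clones and in controls (right); filled points have an adjusted p under 0.05. GGH in KOPN-8 lies at -0.81 on the left, and GGH and SHMT1 lie farthest from 0 on the right.

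Uptake was represented by SLC19A1, the reduced folate carrier and the main route of methotrexate into leukaemia cells. It stood at 36.75, 31.43 and 27.39 CPM in edited 697 (mean 31.86 ± 4.7, SD, n = 3), against 38.58, 36 and 38.94 CPM in control 697 (37.84 ± 1.6). The highest edited library lay inside the control range, and the other 2 lay below it. The log2 fold change of -0.24 (SE 0.0984, 95% interval -0.445 to -0.0381) had an adjusted p of 0.137 in edgeR. Without replicate 1 of edited 697 it was -0.36 with an adjusted p of 0.034 in edgeR, a call that rests on leaving out that library. Without replicate 3 of edited 697 it was -0.15 with an adjusted p of 0.458 in edgeR. In KOPN-8 the carrier stood at 30.84, 35.88 and 33.08 CPM in edited libraries and 33.46, 31.51 and 35.92 CPM in controls. These groups overlapped throughout, with a log2 fold change of -0.02 and an interval of -0.219 to 0.18. The highest group mean, in control 697, was 1.19 times the lowest, in edited 697. Only control 697 stood clear of its neighbour in the order, control KOPN-8, with its lowest library at 36 CPM against 35.92 CPM. Control 697 overlapped edited 697, whose highest library was at 36.75 CPM.

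SLC19A1 shares 1401 of its 9998 annotated exon bases with COL18A1, a collagen gene on the opposite strand, and the strand setting of the read counter is not given in the sources used here. COL18A1 averaged 0.131 CPM in edited and 0.287 CPM in control 697, and 72.7 ± 11 CPM in edited and 145 ± 11.2 CPM in control KOPN-8 (SD, n = 3). Its fall in edited KOPN-8 (0.502 times the control level, adjusted p = 6.33e-09, edgeR) stood beside a SLC19A1 level whose 2 KOPN-8 groups overlapped. The part of COL18A1 reads in the SLC19A1 counts was not tested.

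Retention was represented by FPGS, which adds glutamates to folates and methotrexate and so holds them in the cell, and by GGH, the lysosomal hydrolase that removes them. FPGS stood at 176.9, 168.5 and 162.7 CPM in edited 697, against 177.3, 182.3 and 188.9 CPM in control 697. The 697 groups did not overlap, by a gap of under 1 CPM. Its log2 fold change of -0.11 (SE 0.0667, interval -0.248 to 0.0284) was not called (edgeR adjusted p = 0.357). In KOPN-8, FPGS stood at 178.6, 167.9 and 194 CPM in edited libraries and 187.1, 175.3 and 186.2 CPM in controls. The edited libraries spanned the control range, with a log2 fold change of -0.02 and an interval of -0.157 to 0.116. FPGS was the flattest of the 8 genes over the 4 groups, the highest mean being 1.08 times the lowest, and each group in the order overlapped the next.

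GGH gave the largest change of the 8 genes in KOPN-8. It stood at 44.2, 43.52 and 38.4 CPM in edited KOPN-8 (42.04 ± 3.17, SD, n = 3), against 77.61, 71.7 and 71.63 CPM in control KOPN-8 (73.65 ± 3.43). Every edited library lay below every control, and the level in edited KOPN-8 was 0.571 times that in the control. The log2 fold change was -0.81 (SE 0.0718, interval -0.957 to -0.66, edgeR adjusted p = 3.85e-09). In 697, GGH stood at 129.5, 136.1 and 136.1 CPM in the edited clone (133.9 ± 3.83), against 142.9, 151.3 and 151.8 CPM in controls (148.7 ± 4.97). These groups did not overlap either, but the log2 fold change of -0.15 (SE 0.0676, interval -0.291 to -0.0115) was not called (edgeR adjusted p = 0.181). The KOPN-8 change was more negative than the 697 change by 0.66 on the log2 scale (-0.66, SE 0.0985, edgeR adjusted p = 2.19e-05). Over the 14 alternative settings and left-out libraries, the KOPN-8 change ran from -0.85 to -0.74 and was called in all of them.

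GGH lies on chromosome 8, where many genes were lower in edited KOPN-8. Among the 511 other tested genes of that chromosome, 300 were called lower and 25 higher in edited KOPN-8, with a median log2 fold change of -0.518. In 697, 22 were lower and 21 higher, with a median of 0.0147. Of the 20 tested genes nearest to GGH in gene order, 11 were called lower and 1 was called higher in KOPN-8, with a median of -0.428 and a range of -2.06 to 0.396. The gene called higher was CHD7, a chromatin remodeller, at 0.40. Only TOX at -1.41, AC090152.1 at -0.84 and AC104232.1 at -2.06 had a lower value than GGH among the 20. AC022182.2, NKAIN3, NKAIN3-IT1 and TTPA were at exactly 0 in KOPN-8, a value that ABCG2, with no counts in KOPN-8, also had. They raise the neighbour median of -0.428, and a median without them was not taken. In 697, 0 of these 20 genes were called by edgeR. The part of the chromosome-wide shift in the GGH change was not tested.

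**Figure D3:**
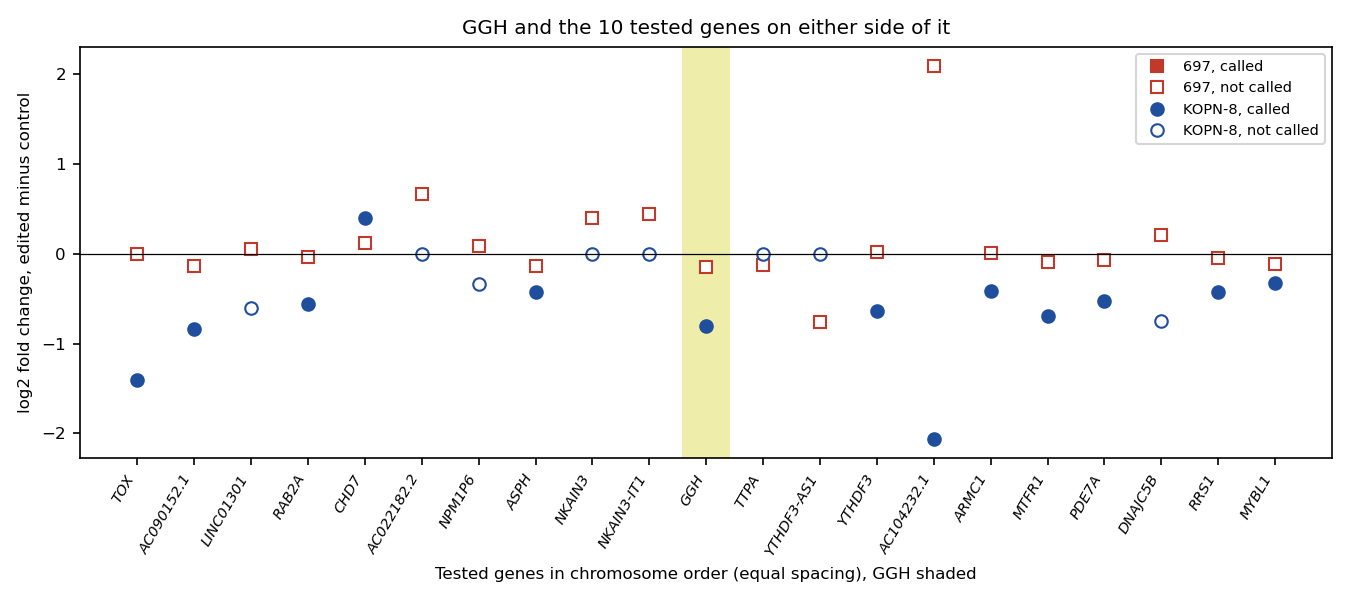
Log2 fold change, edited minus control (y axis), of GGH (shaded) and the 10 tested genes on either side of it in chromosome order (x axis, equal spacing), for 697 (squares) and KOPN-8 (circles), filled where called. In KOPN-8 GGH at -0.81 lies below the median of its neighbours, -0.428, and within their range. That median includes AC022182.2, NKAIN3, NKAIN3-IT1 and TTPA, each at exactly 0.

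The surroundings of other members were read in the same way. The 20 genes nearest to MTHFD2, on chromosome 2, had a median of 0.0466 in KOPN-8, with 1 lower and 3 higher. The 20 nearest to SHMT2, on chromosome 12, had a median of 0.0758, with 1 lower and 3 higher. The 20 nearest to SLC19A1, on chromosome 21, had a median of -0.437 in KOPN-8, with 8 lower and 2 higher, while SLC19A1 itself was at -0.02.

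Because GGH and FPGS act in opposite directions on polyglutamates, the ratio of their raw counts was taken within each library, which needs no scaling between libraries. There were 0.247, 0.259 and 0.198 GGH counts per FPGS count in edited KOPN-8 (0.235 ± 0.0323, SD, n = 3), against 0.415, 0.409 and 0.385 in control KOPN-8 (0.403 ± 0.0159). The KOPN-8 groups did not overlap. In 697 the ratio was 0.732, 0.808 and 0.836 in edited libraries (0.792 ± 0.0538) and 0.806, 0.83 and 0.803 in controls (0.813 ± 0.0148), and these groups overlapped. The ratios describe mRNA, and neither enzyme activity nor polyglutamate length was measured.

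**Figure D4:**
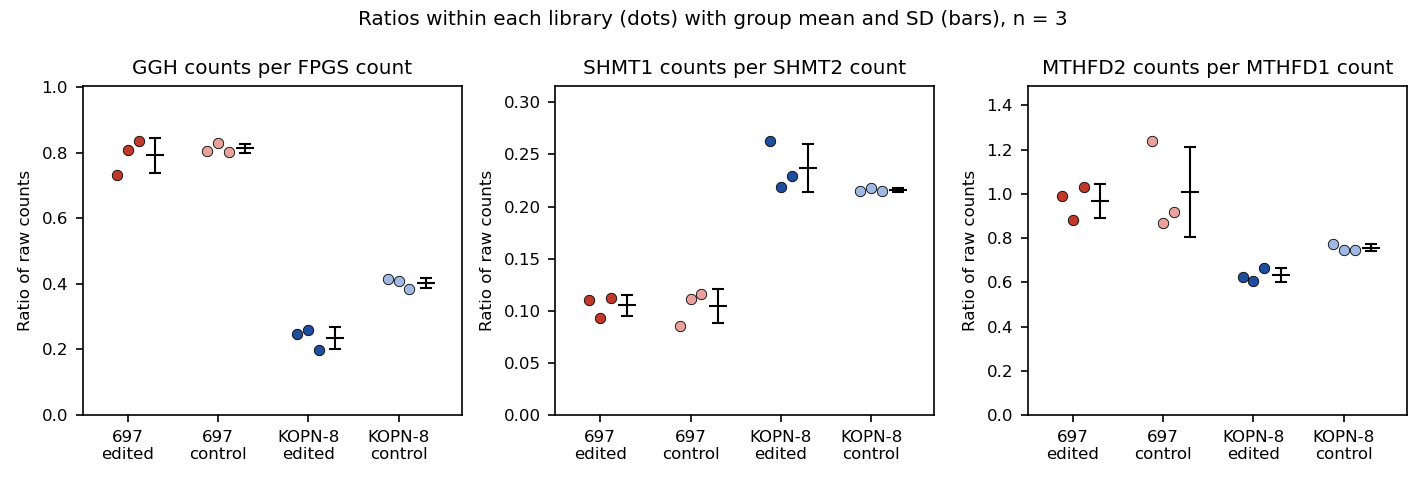
Ratio of raw counts within each library (y axis, from 0) for GGH to FPGS, SHMT1 to SHMT2 and MTHFD2 to MTHFD1 in the 4 groups (x axis), with the mean and SD of 3 libraries as bars. GGH to FPGS averages 0.235 in edited and 0.403 in control KOPN-8, and about the same in the 2 groups of 697, 0.792 in edited and 0.813 in control.

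TYMS, thymidylate synthase, makes thymidylate for DNA from deoxyuridylate with a folate as carbon donor, and is inhibited by methotrexate polyglutamates. Its mRNA is known to be abundant in S phase. It stood at 380.3, 387.7 and 359.4 CPM in edited 697 (375.8 ± 14.7, SD, n = 3), against 310.8, 354.9 and 345.1 CPM in control 697 (336.9 ± 23.1). The 697 groups did not overlap, and the log2 fold change of 0.16 (SE 0.0687, interval 0.0156 to 0.3) was not called (edgeR adjusted p = 0.168). In KOPN-8 it stood at 456.1, 436.3 and 398.6 CPM in edited libraries (430.3 ± 29.2) and 400.7, 393.7 and 395 CPM in controls (396.5 ± 3.69). One edited library lay within the control range and the other 2 lay above it, with a log2 fold change of 0.12 (SE 0.0683, interval -0.0229 to 0.26, edgeR adjusted p = 0.217). TYMS had the highest level per kilobase of the 8 genes, at 203 CPM per kilobase of its principal transcript in control 697.

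TYMS shares 967 of its 2470 exon bases with ENOSF1, a gene on the opposite strand. ENOSF1 averaged 0.649 CPM in edited and 0.864 CPM in control 697, and 30 ± 4.83 CPM in edited and 33.7 ± 2.44 CPM in control KOPN-8. It was not called in either edited-to-control comparison (edgeR adjusted p = 0.741 in 697 and 0.418 in KOPN-8).

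Serine hydroxymethyltransferases move a carbon unit from serine to tetrahydrofolate, SHMT1 in the cytosol and SHMT2 mainly in mitochondria. SHMT2 stood at 261, 278.6 and 260.4 CPM in edited KOPN-8 (266.7 ± 10.4, SD, n = 3), against 316.7, 293.3 and 301.3 CPM in control KOPN-8 (303.8 ± 11.9). Every edited library lay below every control. The level was 0.878 times that of the control, with a log2 fold change of -0.19 (SE 0.062, interval -0.316 to -0.0598, edgeR adjusted p = 0.0246). This call was lost in edgeR without replicate 1 of edited KOPN-8 (-0.17, adjusted p = 0.0973), without its replicate 3 (-0.17, adjusted p = 0.079), without replicate 1 of control KOPN-8 (-0.16, adjusted p = 0.122), without its replicate 3 (-0.19, adjusted p = 0.0578), and with no low-count filter (-0.17, adjusted p = 0.0872). In 697 SHMT2 stood at 255.1, 269.2 and 251.7 CPM in edited libraries and 248.5, 260.4 and 249.3 CPM in controls. The 697 groups overlapped, with a log2 fold change of 0.03 and an interval of -0.0954 to 0.163. The difference between the 2 changes, -0.22, had an adjusted p of 0.0828 in edgeR, of 0.0412 in DESeq2, and of 0.0383 in edgeR with the replicate block.

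SHMT1 was lower than SHMT2 in counts and per kilobase in both control groups, at 10.7 against 99.6 CPM per kilobase in control 697 and 26.7 against 120 in control KOPN-8 (principal transcripts). It stood at 28.05, 25.18 and 28.27 CPM in edited 697 and 21.25, 28.92 and 28.93 CPM in control 697. Replicate 1 of control 697 stood below the other 5 libraries, and the groups overlapped (log2 fold change 0.04, interval -0.175 to 0.259). In KOPN-8 SHMT1 stood at 68.52, 61.09 and 59.74 CPM in edited libraries and 68.19, 64.01 and 64.84 CPM in controls. The edited libraries again spanned the control range (log2 fold change -0.06, interval -0.245 to 0.134). The ratio of SHMT1 to SHMT2 counts averaged 0.237 ± 0.0231 in edited and 0.216 ± 0.00173 in control KOPN-8, and 0.105 ± 0.0102 in edited and 0.104 ± 0.0164 in control 697 (SD, n = 3). It was higher in every KOPN-8 library than in every 697 library. SMCR8 overlaps 196 of the 7281 exon bases of SHMT1 on the opposite strand. It was higher in edited KOPN-8 (log2 fold change 0.39, adjusted p = 0.000592, edgeR), where the SHMT1 groups overlapped. The part of SMCR8 reads in the SHMT1 counts was not tested.

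MTHFD1 and MTHFD2 interconvert the one-carbon forms of tetrahydrofolate, MTHFD1 in the cytosol with 3 activities in 1 protein, and MTHFD2 in mitochondria, where it is prominent in embryonic and cancer cells. MTHFD2 stood at 185, 181.2 and 189.7 CPM in edited KOPN-8 (185.3 ± 4.27, SD, n = 3), against 231.9, 220.7 and 226.8 CPM in control KOPN-8 (226.5 ± 5.6). The groups were separated by a gap larger than the range within either. The level was 0.818 times that of the control, with a log2 fold change of -0.29 (SE 0.0919, interval -0.48 to -0.0977, edgeR adjusted p = 0.0215). In edgeR this call was lost without replicate 1 of edited KOPN-8 (-0.29, adjusted p = 0.0582), without its replicate 2 (-0.27, adjusted p = 0.0706), without replicate 1 of control KOPN-8 (-0.27, adjusted p = 0.0723) and without its replicate 3 (-0.29, adjusted p = 0.0564).

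MTHFD2 was the member that varied most between the libraries of control 697. It stood at 248.8, 221.5 and 241.7 CPM in edited 697 (237.3 ± 14.2), against 277.2, 190.3 and 237.4 CPM in control 697 (234.9 ± 43.5). Control replicates 1 and 2 lay above and below all edited libraries, and the log2 fold change was 0.01 with an interval of -0.177 to 0.206. The KOPN-8 change minus the 697 change, -0.30 (interval -0.575 to -0.0332), had an adjusted p of 0.114 in edgeR. It was called with the replicate block (-0.32, adjusted p = 0.00613), with no low-count filter (-0.29, adjusted p = 0.0437) and without replicate 1 of control 697 (-0.44, adjusted p = 0.00414, edgeR). Without replicate 2 of control 697 it was -0.17 with an adjusted p of 0.276 in edgeR, the highest over the alternatives run. With the block, which pairs same-numbered libraries in both lines, 3 members, GGH, MTHFD2 and SHMT2, were called in this comparison. Of all genes, 3864 were called with the block and 2971 without it.

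MTHFD1 stood at 250.9, 250.6 and 233.9 CPM in edited 697, against 223.1, 219.5 and 259 CPM in control 697. The third control lay above all other 697 libraries, and the log2 fold change was 0.07 (interval -0.0721 to 0.21). In KOPN-8 MTHFD1 stood at 297.6, 298 and 284.3 CPM in edited libraries and 299.8, 295.1 and 304.6 CPM in controls, which overlapped (-0.03, interval -0.171 to 0.107). There were 0.622, 0.608 and 0.667 MTHFD2 counts per MTHFD1 count in edited KOPN-8 (0.632 ± 0.0308), against 0.774, 0.748 and 0.745 in control KOPN-8 (0.756 ± 0.0159). The KOPN-8 groups of this ratio did not overlap, while those of 697, 0.969 ± 0.0757 in edited and 1.01 ± 0.203 in control, did. MTHFD1 and MTHFD2 have processed copies in the genome, of which MTHFD1P1 had 24 and MTHFD2P7 had 6 counts over all 12 libraries.

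A further comparison set the lines against each other. Between the controls, KOPN-8 minus 697, 5 members were called, where 73.3% of all genes were called, 4 higher and 1 lower. SHMT1 was 2.49 times as high in control KOPN-8 as in control 697 (log2 fold change 1.32, SE 0.098, edgeR adjusted p = 1.31e-11). GGH was 0.495 times as high (-1.01, SE 0.0688, edgeR adjusted p = 2.15e-12). MTHFD1 (0.36, adjusted p = 4.74e-05), SHMT2 (0.27, adjusted p = 0.000532) and TYMS (0.23, adjusted p = 0.00377) were higher in control KOPN-8 by smaller amounts in edgeR. ENOSF1, which overlaps TYMS on the opposite strand, was 38.6 times as high in control KOPN-8, at 33.7 against 0.864 CPM. The counter's strand setting is not known, and the part of ENOSF1 reads in the TYMS difference was not tested. FPGS at 0.00, MTHFD2 at -0.05 and SLC19A1 at -0.17 were not called (edgeR adjusted p = 0.996, 0.619 and 0.118). COL18A1, which overlaps SLC19A1 on the opposite strand, was 490 times as high in control KOPN-8, at 145 against 0.287 CPM. The part of COL18A1 reads in the SLC19A1 value was not tested either. Upper-quartile scaling, which moved the median of all genes by -0.0903, left TYMS at 0.14 with an adjusted p of 0.0523 and brought SLC19A1 to -0.26 with an adjusted p of 0.0196 in edgeR.

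Between the edited clones, KOPN-8 minus 697, 5 members were also called, where 73.7% of all genes were called. GGH was 0.314 times as high in edited KOPN-8 as in edited 697 (log2 fold change -1.67, SE 0.0718, edgeR adjusted p = 2.36e-16). SHMT1 was 2.33 times as high (1.22, SE 0.0994, edgeR adjusted p = 7.28e-11). MTHFD2 was lower (-0.36, adjusted p = 0.0016), and MTHFD1 (0.26, adjusted p = 0.00155) and TYMS (0.20, adjusted p = 0.0135) were higher in edited KOPN-8 in edgeR. The TYMS call was lost in edgeR under upper-quartile scaling (0.12, adjusted p = 0.106) and without replicate 1 of edited KOPN-8 (0.16, adjusted p = 0.0827). Its opposite-strand neighbour ENOSF1 was 42.9 times as high in edited KOPN-8 as in edited 697, and its part in the TYMS difference was not tested.

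The order of the 4 group means differed from gene to gene. GGH was the only member whose 4 groups all stood clear of each other, with control 697 highest, then edited 697, control KOPN-8 and edited KOPN-8, and a 3.54-fold span. The share of all genes with 4 clear groups was not determined. Between the lines, the controls did not overlap in 76.3% of all genes tested, and the edited clones in 75.1%. SHMT1, with a 2.49-fold span, and MTHFD1, with a 1.28-fold span, had both KOPN-8 groups above both 697 groups, and the groups of each line overlapped. TYMS also had both KOPN-8 groups on top, followed by edited 697 and then control 697, over a 1.28-fold span. In SHMT2 only control KOPN-8 stood apart, at the top, and in MTHFD2 only edited KOPN-8 stood apart, at the bottom. Per kilobase of principal transcript in control 697, TYMS at 203 CPM per kilobase was followed by SHMT2 at 99.6, GGH at 92.5, FPGS at 80.2, MTHFD1 at 74.6, MTHFD2 at 52.7, SHMT1 at 10.7 and SLC19A1 at 9.93. Per kilobase of all merged exons the order shifted, with MTHFD2 at 48.2 above GGH at 47.5, and MTHFD1 at 24.9.

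For each member, the genes with the most similar log2 CPM over the 12 libraries were sought among 10801 tested genes averaging 5 CPM or more. The libraries fall into 4 groups, so that these correlations describe the group pattern. GGH was closest to SAMD4A (Pearson r = 0.997) and AGAP1 (0.996), and SHMT1 to FECH (0.996) and SPINT1 (0.995). MTHFD1 was closest to HMGB1P6 (0.974) and RAD51AP1 (0.968), SHMT2 to TMCO3 (0.968) and MRPS18B (0.961), and MTHFD2 to PRMT3 (0.958) and XPOT (0.945). TYMS was closest to CRMP1 (0.958) and CNOT1 (0.948), FPGS to DUS1L (0.883) and TTLL4 (0.854), and SLC19A1 to POLR2L (0.88) and ANAPC13 (0.846). The flatter members, FPGS and SLC19A1, had the lowest best correlations.

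Other genes of folate and antifolate traffic were examined beside SLC19A1. Of 11 transporters listed, 6 were tested, and 1 was higher and none lower in edited 697, while 1 was higher and 2 were lower in edited KOPN-8. Over all genes tested, 4.85% were called higher and 4.6% lower in edited 697, and 11.5% higher and 17.2% lower in edited KOPN-8, the shares beside which each list count below stands. The list medians were 0.0377 in 697 and -0.23 in KOPN-8, against 0 for all genes. ABCG2, an exporter of folates and many drugs, stood at 23.6, 25.8 and 32 CPM in edited 697 (27.1 ± 4.34, SD, n = 3), against 12, 11.9 and 14 CPM in control 697 (12.6 ± 1.2). It rose in all 3 edited libraries above all controls (log2 fold change 1.10, edgeR adjusted p = 1.49e-05) and had no counts in KOPN-8, where 3 counts amount to 0.164 to 0.227 CPM in a library.

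ABCC4, an exporter of cyclic nucleotides that also carries methotrexate, stood at 24.4, 22.7 and 21.6 CPM in edited KOPN-8 (22.9 ± 1.42), against 57.1, 60.9 and 56.8 CPM in control KOPN-8 (58.3 ± 2.26). It fell in edited KOPN-8 (log2 fold change -1.35, edgeR adjusted p = 4.38e-10), and averaged 59.6 CPM in edited and 58.1 CPM in control 697. ABCC4 lies on chromosome 13, whose other 273 tested genes had a median of -0.188 in KOPN-8, with 101 lower and 24 higher, and the part of that shift in its change was not tested. ABCC5 averaged 47.8 ± 4.46 CPM in edited and 62.4 ± 2.43 CPM in control KOPN-8 (log2 fold change -0.38, edgeR adjusted p = 0.000468). ABCC2 was low in KOPN-8, at 1.36 CPM in edited and 0.599 CPM in control libraries, and its call (1.10, edgeR adjusted p = 0.0176) was lost without replicate 2 of edited KOPN-8 (0.82, adjusted p = 0.108) or replicate 1 of control KOPN-8 (0.96, adjusted p = 0.0728). The proton-coupled folate transporter SLC46A1, the folate receptors FOLR1 and FOLR3, and ABCC3 had no counts in any library, and FOLR2 had 18 in all 12.

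Of 13 other folate-dependent one-carbon enzymes, 9 were tested, and in each line 1 was higher and 2 were lower in the edited libraries, where 9.45% of all genes were called in 697 and 28.7% in KOPN-8. The list medians were -0.00655 in 697 and 0.0132 in KOPN-8, against 0 for all genes. SARDH, the mitochondrial sarcosine dehydrogenase, moved in opposite directions in the lines. It averaged 10.3 ± 0.615 CPM in edited and 5.06 ± 1.02 CPM in control 697 (log2 fold change 1.04, edgeR adjusted p = 0.000641), and 2.19 ± 0.552 CPM in edited and 6.27 ± 1.71 CPM in control KOPN-8 (-1.48, edgeR adjusted p = 1.02e-05).

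MTHFD2L, the mitochondrial relative of MTHFD2, fell in both edited clones. It averaged 17.9 ± 2.17 CPM in edited and 24.8 ± 3.46 CPM in control 697 (log2 fold change -0.47, edgeR adjusted p = 0.0122), and 8.66 ± 0.686 CPM in edited and 11.7 ± 0.799 CPM in control KOPN-8 (-0.43, edgeR adjusted p = 0.0159). The 697 call was lost in edgeR without replicate 2 of edited 697 (-0.38, adjusted p = 0.0796) or replicate 3 of control 697 (-0.39, adjusted p = 0.0792). The KOPN-8 call was lost in edgeR without replicates 1 (-0.41, adjusted p = 0.0552) or 2 (-0.39, adjusted p = 0.061) of edited KOPN-8, or replicate 3 of control KOPN-8 (-0.37, adjusted p = 0.0809). GLDC, the decarboxylase of the glycine cleavage system, averaged 158 ± 10.6 CPM in edited and 123 ± 3.07 CPM in control KOPN-8 (0.37, edgeR adjusted p = 0.000259). MTHFD1L, the mitochondrial relative of MTHFD1, was at 0.08 in 697 and 0.01 in KOPN-8 and was not called (edgeR adjusted p = 0.643 and 0.953). FTCD, a liver enzyme of histidine breakdown, was called lower in edited 697 at 0.598 CPM against 1.47 CPM in control 697 (-1.26, edgeR adjusted p = 0.0373), a call lost under 7 of the alternatives, with edgeR or DESeq2 adjusted p-values of 0.0563 to 0.2. These include leaving out replicates 1 or 3 of edited 697 and replicates 2 or 3 of control 697.

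Serine, the carbon source of SHMT1 and SHMT2, is made by a short pathway or taken up. Of 7 genes for its synthesis, uptake and mitochondrial import, 3 were lower and none higher in edited 697 (list median -0.244), and 1 was lower and none higher in edited KOPN-8 (0.0168), against a median of 0 for all genes. Of all genes tested, 4.6% were called lower in edited 697 and 17.2% in edited KOPN-8. SLC1A4, a neutral amino acid transporter, fell in both lines. It stood at 36.1, 30.3 and 34.6 CPM in edited 697, against 44.9, 41.6 and 43 CPM in control 697 (log2 fold change -0.36, edgeR adjusted p = 0.00325). In KOPN-8 it stood at 169, 165 and 153 CPM in the edited clone, against 215, 216 and 220 CPM in controls (-0.42, edgeR adjusted p = 2.51e-05). The 697 calls of SFXN1, the mitochondrial serine carrier (-0.24, edgeR adjusted p = 0.0371), and of its relative SFXN3 (-0.31, edgeR adjusted p = 0.0497) were lost under 6 and 11 alternatives. Without 1 library, SFXN1 was lost when replicates 1 or 3 of edited 697 or 2 or 3 of control 697 were left out, with edgeR adjusted p-values of 0.0777 to 0.173. For SFXN3 the losses include every left-out 697 library but replicate 3 of the edited clone, DESeq2 (-0.30, adjusted p = 0.0692) and the fit without replicate 1 of edited 697 (-0.19, edgeR adjusted p = 0.27).

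The products of the pathway were examined through purine, thymidylate and methionine genes. Of 13 genes of purine synthesis, 0 were called in edited 697 by edgeR (median -0.0184) and 3 were lower in edited KOPN-8 (median -0.087), where 17.2% of all genes were lower. PPAT, the first committed step, averaged 97 ± 0.851 CPM in edited and 113 ± 2.58 CPM in control KOPN-8 (log2 fold change -0.22, edgeR adjusted p = 0.0267), and its call was lost without any 1 of the 6 KOPN-8 libraries, with adjusted p-values up to 0.0955. IMPDH1, of guanine nucleotide synthesis, averaged 69.5 CPM in edited and 83.4 CPM in control KOPN-8 (-0.26, edgeR adjusted p = 0.00372). ADSS1 was at -0.62 in KOPN-8 (edgeR adjusted p = 0.0287), lost in DESeq2 (adjusted p = 0.0852) and in edgeR without replicates 2 or 3 of edited or 1 or 2 of control KOPN-8, with adjusted p-values of 0.0905 to 0.13.

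Of 13 genes of thymidylate and deoxynucleotide supply, 0 were called in edited 697 by edgeR (median -0.0496), and 1 was higher and 1 lower in edited KOPN-8 (median 0.0859). DUT, which makes the deoxyuridylate used by TYMS, averaged 198 ± 12 CPM in edited and 159 ± 7.13 CPM in control KOPN-8 (log2 fold change 0.32, edgeR adjusted p = 0.00565). RRM2B, a p53-inducible ribonucleotide reductase subunit, stood at 74, 69.1 and 66.3 CPM in edited KOPN-8, against 165, 160 and 142 CPM in control KOPN-8 (-1.16, edgeR adjusted p = 2.99e-11), and like GGH it lies on chromosome 8. Of 11 methionine cycle genes, 9 were tested, 0 were called in edited 697 by edgeR (median -0.0541) and 2 were lower in edited KOPN-8 (median -0.119). These were AHCYL1, a relative of adenosylhomocysteine hydrolase (-0.30, edgeR adjusted p = 0.000998), and MTAP, of methionine salvage (-0.21, edgeR adjusted p = 0.0378), whose call was lost under 8 alternatives, among them every left-out KOPN-8 library but replicate 1 of the edited clone, with adjusted p-values of up to 0.115.

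**Figure D5:**
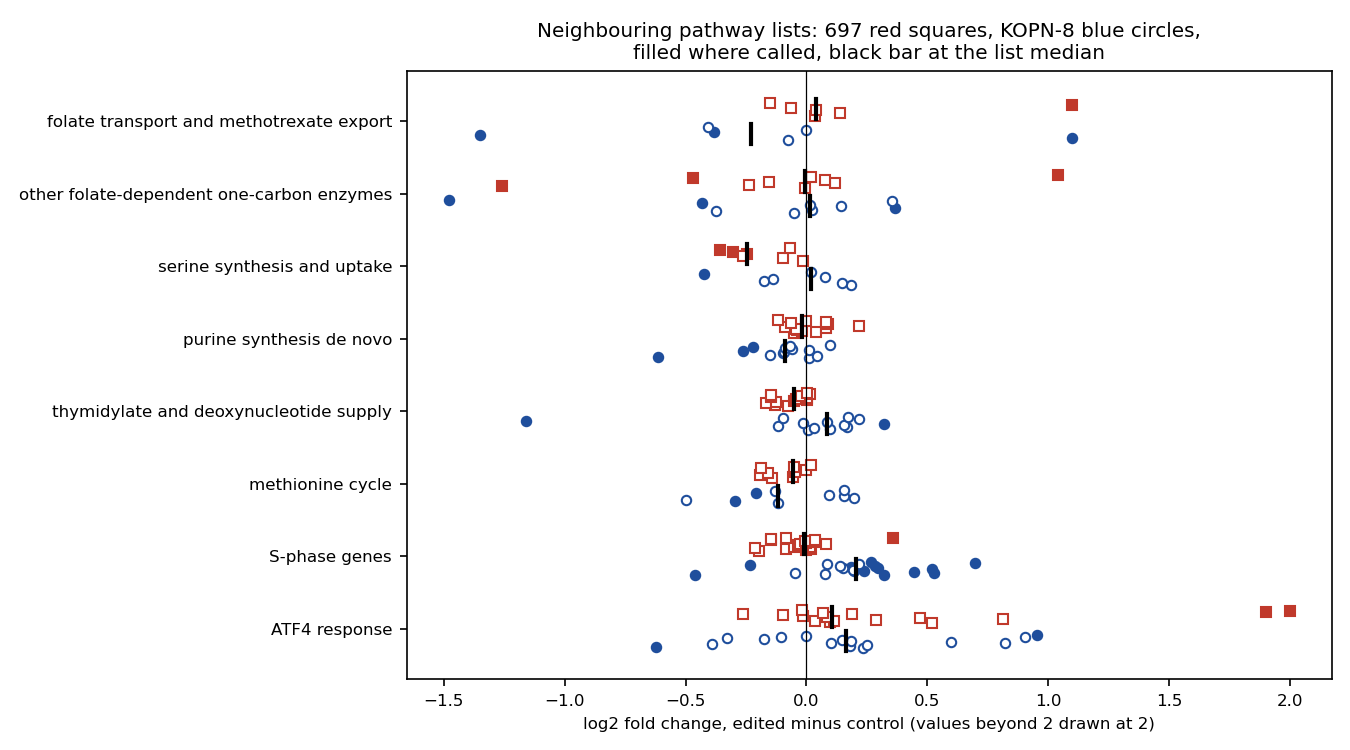
Log2 fold change, edited minus control (x axis), of each tested gene of 8 lists (y axis) in 697 (squares) and KOPN-8 (circles), filled where called, with the list median as a black bar and TRIB3, at 3.85 in 697, drawn at 2. The S-phase genes have a median of -0.0087 in 697 and 0.206 in KOPN-8, where 10 of 20 are called higher, as are 11.5% of all genes.

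S-phase genes were read beside TYMS. Of 20 listed, 1 was higher and none lower in edited 697 (median -0.0087), and 10 were higher and 2 lower in edited KOPN-8 (median 0.206), against 0 for all genes. Of all genes tested, 4.85% were higher and 4.6% lower in edited 697, and 11.5% were higher and 17.2% lower in edited KOPN-8. UHRF1, which guides maintenance DNA methylation, averaged 316 ± 21.1 CPM in edited and 195 ± 6.95 CPM in control KOPN-8 (log2 fold change 0.70, edgeR adjusted p = 2.03e-08). CLSPN, a replication checkpoint adaptor (0.53, edgeR adjusted p = 1.29e-05), and MCM5, a helicase subunit (0.52, edgeR adjusted p = 4.37e-05), were also higher in edited KOPN-8. TYMS at 0.12 was not called in KOPN-8. UNG, which removes uracil from DNA, rose in both edited clones, in 697 at 118, 108 and 109 CPM against 85.9, 82.2 and 93 CPM in control 697 (0.36, edgeR adjusted p = 0.00186). In KOPN-8 it stood at 118, 120 and 118 CPM in the edited clone and 95.1, 91.8 and 109 CPM in controls (0.27, edgeR adjusted p = 0.0067), and the difference between the changes, -0.09, was not called (edgeR adjusted p = 0.601).

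Genes of the ATF4 response, the amino acid stress programme, were read beside SHMT2 and MTHFD2, which are known ATF4 targets. Of 17 listed, 16 were tested, and 2 were higher and none lower in edited 697 (median 0.107), while 1 was higher and 1 lower in edited KOPN-8 (median 0.163), against 0 for all genes. With RLE or upper-quartile scaling, 3 of them were higher in edited KOPN-8. SLC7A11, the cystine transporter, averaged 25.3 ± 2.13 CPM in edited and 6.85 ± 2.08 CPM in control 697 (log2 fold change 1.90, edgeR adjusted p = 0.00018). TRIB3, a pseudokinase, was called in 697 (edgeR adjusted p = 0.00404) at a mean of 0.458 CPM in edited and 0.0202 CPM in control libraries, both close to the floor of counting, with 0, 0.0605 and 0 CPM in the 3 control libraries. Its fitted log2 fold change, 3.85, was 5.72 without replicate 2 of control 697. In KOPN-8, VLDLR, a lipoprotein receptor, averaged 21.2 ± 5.13 CPM in edited and 11.1 ± 2.27 CPM in control libraries (0.95, edgeR adjusted p = 0.000509). ATF3 averaged 5.51 ± 0.883 CPM in edited and 8.47 ± 0.688 CPM in control KOPN-8 (-0.62, edgeR adjusted p = 0.0115), a call lost without replicate 1 of edited KOPN-8 (-0.49, adjusted p = 0.0824). ATF4 mRNA itself was at 0.04 in 697 and 0.18 in KOPN-8 and was not called (edgeR adjusted p = 0.819 and 0.0506). SHMT2 and MTHFD2 were lower in edited KOPN-8, and a part of ATF4 in their changes was not tested.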

How the data were processed

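Whole-number counts of reads for each gene symbol, deposited by the authors, came from stranded, poly-A-selected libraries. Trimmomatic, STAR, DESeq2 and the hg19 build are named in the submitters' processing notes. Their versions, and the counter with its strand setting and gene models, were not given in the sources used here. A second deposited table holds a normalized signal, the authors' counts over 1 size factor for each library, and served 1 alternative. Totals were 10378769 to 18278662 counts, which puts the upper limit for a gene with 0 counts (3 counts) at 0.164 to 0.289 CPM in a library, for counting error only.

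The fit used edgeR 4.0.16 in R 4.3.3, with TMM scaling, filterByExpr and a robust quasi-likelihood F test, with 1 mean per group over all 12 libraries. This left 15218 genes, with Benjamini-Hochberg adjustment over the whole table and calls at an adjusted p under 0.05. Standard errors are the log2 fold change over the root of F. The alternatives were RLE and upper-quartile scaling, TMM without chromosomes 8 and 13, no low-count filter, DESeq2 1.42.0, limma 3.58.1 on log2 of the deposited normalized signal plus 1, a replicate block, the libraries of 1 line alone, and leaving out each library. The scripts were also tested on simulated data.

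The members, gene lists and tests were chosen with earlier results of these data known. The text names all members, SETD2, up to 3 called genes per list and line by smallest p, ENOSF1, MTHFD1L and MTHFD2L, the genes most like each member, and genes that overlap or neighbour members; ATF4, GGH's neighbours and transporters at 0 counts were named after their values were seen. Chromosome, gene order, overlaps and lengths come from GENCODE for GRCh38, which placed 96.3% of tested genes; no coordinates of it are given. Replicate libraries differed beyond sampling noise (chi-square over degrees of freedom, 2.74 to 9.78). Deviations of same-numbered libraries from their group means correlated at 0.105, 0.207 and 0.104 in 697, taken as paired on this evidence. In KOPN-8 they correlated at 0.0508, 0.0362 and 0.0743, smaller values that were not taken as paired. Libraries with different numbers correlated at -0.108 to -0.0076 in 697 and at -0.0532 to 0.00754 in KOPN-8. Every same-numbered value thus lay above these in both lines. The main fit has no pairing term, so its errors, intervals and calls leave out the pairing in 697 and any pairing in KOPN-8. The replicate block has terms for both lines, so it also pairs the KOPN-8 libraries.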

Additional observations from a re-analysis of the deposited data

Results flagged for a closer look

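The genes below are those named for a comparison above whose KOPN-8 change differed from the 697 change by the edgeR test of the difference with Benjamini-Hochberg adjustment, which called 19.5% of all genes. Most were named because they were called in 1 line, so that their number is no evidence of how often the lines differ. GGH differed by -0.66 (adjusted p = 2.19e-05, KOPN-8 change -0.81 and 697 change -0.15), with every edited library below every control in both lines. The transporters ABCC4 and ABCC5 differed by -1.39 (adjusted p = 1.16e-07) and -0.32 (adjusted p = 0.0386), with KOPN-8 changes of -1.35 and -0.38 and 697 changes of 0.04 and -0.06. SARDH differed by -2.53 (adjusted p = 5.62e-07), having changed in opposite directions, -1.48 in KOPN-8 and 1.04 in 697. RRM2B, on chromosome 8 like GGH, differed by -1.14 (adjusted p = 6.56e-08, -1.16 in KOPN-8 and -0.02 in 697), and PPAT by -0.30 (adjusted p = 0.0448, -0.22 and 0.08). The S-phase genes UHRF1, CLSPN and MCM5 differed by 0.78 (adjusted p = 1.41e-06), 0.74 (adjusted p = 3.97e-05) and 0.55 (adjusted p = 0.00186), and DUT by 0.36 (adjusted p = 0.0337). Of the ATF4 response genes, TRIB3 differed by -3.85 (adjusted p = 0.002), a value that rests on 0, 0.0605 and 0 CPM in the control 697 libraries. Leaving out control replicate 2 moved its 697 change to 5.72, against 3.85 with all libraries. VLDLR differed by 0.97 (adjusted p = 0.00508) and ATF3 by -0.72 (adjusted p = 0.0498). SETD2 mRNA differed by -0.54 (adjusted p = 0.000225), with changes of -0.10 in KOPN-8 and 0.44 in 697.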

How the results depend on the processing

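Over 568 alternative values of the members, 525 kept both direction and side of the threshold, 12 lost a call, 8 gained one and 23, all of them uncalled, changed sign. GGH kept its calls, and stayed uncalled in edited minus control 697, under every alternative run. In the KOPN-8 change minus the 697 change, 1 member was called, and 2971 of all genes. The members called numbered 2 with no low-count filter (3009 of all genes), 2 in DESeq2 (2890) and 3 with the replicate block (3864). Leaving out 1 library gave 1 to 2 members and 2440 to 3101 of all genes. With the block, 2319 of all genes were called in 697, against 1438 without it, and 5348 in KOPN-8, against 4370. The block changed no member's call within a line. Leaving out 1 library gave 0 to 1 members called in 697, with 1061 to 1473 of all genes called. In KOPN-8 it gave 1 to 3 members, with 3422 to 3756 of all genes called. There 1 member remained called without replicate 1 of the edited or replicate 1 or 3 of the control libraries. FPGS between the controls changed sign with RLE (-0.0165), upper-quartile scaling (-0.0897), DESeq2 (-0.00601) and limma (-0.00608). Upper-quartile scaling also turned SHMT2 (-0.0322) and SLC19A1 (-0.0209) between the edited clones. Leaving out 1 library, uncalled values that changed sign ran from -0.0205 to 0.0353 for FPGS between controls, -0.076 to 0.0282 for FPGS in KOPN-8, -0.118 to 0.152 for MTHFD2 in 697, -0.184 to 0.0851 for MTHFD2 between controls, -0.0927 to 0.118 for SHMT1 in 697, -0.000745 to 0.0555 for SHMT2 in 697, -0.0732 to 0.0333 for SLC19A1 in KOPN-8 and -0.0369 to 0.174 for SLC19A1 between edited clones. In the line difference of changes they ran from -0.172 to 0.0387 for SHMT1 and -0.0834 to 0.0166 for TYMS. MTHFD2 between controls was called without replicate 2 of control 697 (-0.184, edgeR adjusted p = 0.0308). The causes were not tested. Of 452 alternative values of list genes and SETD2, 51 lost a call and none changed sign. The number of libraries, 3 a group, limits the precision of every value.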
